A study of Mus musculus with 96 samples.

Results

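Collagens were taken as every gene symbol made of Col, a number, the letter a and a number at its start. In the deposited table of RPKM (reads per kilobase of transcript and M reads, M for mega), 45 of 29072 gene symbols matched, spread over 327 of 168326 transcript rows. The row with the highest mean over all 96 libraries stood for each symbol. Col4a3bp, which matched by spelling, encodes a ceramide transfer protein and no collagen, so 44 collagens were described. They comprised 11 fibrillar collagens, 6 chains of type IV, 6 chains of type VI, 9 fibril-associated collagens (FACIT), 3 short-chain collagens, 2 multiplexins, 4 transmembrane collagens and 3 others.

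Collagens are secreted as trimers of alpha chains that wind into a stiff helix. Types I, III and V assemble into the fibres of connective tissue, in which type V chains help to start a fibril. Type IV forms the meshwork of basement membranes, which wrap each fat cell and each capillary, and type VI forms beaded filaments that sit between the basement membrane and the fibres and is plentiful in fat tissue. Types XV and XVIII, the multiplexins, carry sugar side chains and lie in or next to the basement membrane. In fat depots, stromal fibroblasts, fat cells, endothelial cells and mural cells can all make collagen.

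RNA came from 2 depots of male C57BL/6J mice, brown fat from between the shoulder blades (interscapular, iBAT) and white fat from the groin (inguinal, iWAT). The mice were either wildtype or Ucp1-KO, which lack the uncoupling protein of brown fat throughout the body and are labelled UCP1(-/-). For 4 weeks they ate a control diet, in which fat gave 13% of the energy, while housed at 20 °C or at 30 °C, or a high fat diet, in which fat gave 48%, while housed at 30 °C; their age is not given in the sources used here. Each tissue therefore gave 6 groups of 8 libraries, 12 groups in all, and the series describes 8 animals in each group. The high fat diet was combined with 30 °C alone in the groups used here, and the labels do not say which iBAT and iWAT libraries share an animal. A bulk library cannot tell fewer cells of a type from less RNA per cell.

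The start regions of the 4 collagens with the highest mean level on the rows used are shown: Col1a2 and Col3a1 for the fibrillar collagens, and Col4a1 and Col4a2 for the basement membrane. The windows are from RefSeq on build GRCm38.p6 and run from 250 bases before to 50 bases after the start of the gene. The build used for the deposited table is not given in the sources used here. RefSeq windows were matched for 35 of the 44 collagens, 38 windows in all, and none is shown for Col1a1. Capitals mark matches on either strand to 3 motifs, the CCAAT box with the letters CCAAT, the GC box with the letters GGGCGG and the TATA box with the letters TATAAA. No match of one motif overlapped a match of another in these windows. The Col1a2 window lies at chr6:4505368-4505667 on the plus strand, the Col3a1 window at chr1:45311288-45311587 on the plus strand, the Col4a1 window at chr8:11312777-11313076 on the minus strand and the Col4a2 window at chr8:11312555-11312854 on the plus strand.
Col1a2: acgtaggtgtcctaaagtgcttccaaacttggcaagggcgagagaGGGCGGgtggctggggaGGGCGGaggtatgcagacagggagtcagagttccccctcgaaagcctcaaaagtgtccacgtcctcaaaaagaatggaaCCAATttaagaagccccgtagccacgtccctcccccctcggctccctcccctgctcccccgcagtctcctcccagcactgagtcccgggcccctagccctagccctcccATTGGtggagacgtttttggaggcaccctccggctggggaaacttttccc
Col3a1: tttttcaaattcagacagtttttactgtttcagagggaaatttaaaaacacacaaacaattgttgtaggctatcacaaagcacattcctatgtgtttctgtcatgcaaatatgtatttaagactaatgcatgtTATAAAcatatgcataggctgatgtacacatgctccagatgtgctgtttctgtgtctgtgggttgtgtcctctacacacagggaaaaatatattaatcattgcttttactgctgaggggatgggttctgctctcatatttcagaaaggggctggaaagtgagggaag
Col4a1: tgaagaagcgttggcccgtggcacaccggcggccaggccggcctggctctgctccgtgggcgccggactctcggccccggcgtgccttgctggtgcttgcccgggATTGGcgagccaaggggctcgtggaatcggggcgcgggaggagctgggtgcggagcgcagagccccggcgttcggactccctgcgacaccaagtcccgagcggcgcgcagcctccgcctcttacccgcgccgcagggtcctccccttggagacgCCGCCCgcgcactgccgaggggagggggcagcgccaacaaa
Col4a2: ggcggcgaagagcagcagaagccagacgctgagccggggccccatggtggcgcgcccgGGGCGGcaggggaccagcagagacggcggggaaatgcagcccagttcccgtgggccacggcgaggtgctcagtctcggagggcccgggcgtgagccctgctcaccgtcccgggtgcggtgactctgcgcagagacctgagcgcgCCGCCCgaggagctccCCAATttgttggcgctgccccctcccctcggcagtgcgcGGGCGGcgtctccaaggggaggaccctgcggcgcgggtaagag

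Col4a1 and Col4a2 start 21 bases apart on opposite strands, so their windows share 78 bases. Both type IV windows were rich in G and C, 74.0% for Col4a1 and 73.7% for Col4a2, and the Col1a2 window held 61.0%. The Col3a1 window held 37.7%, below the median of 52.7% over all 32851 windows. A CCAAT was found in Col1a2, Col4a1 and Col4a2, a GC box in the same windows, and the Col3a1 window held a TATAAA alone. On either strand, CCAAT was present in 13 of 38 collagen windows and 37.4% of all windows, GGGCGG in 23 of 38 and 35.7%, and TATAAA in 5 of 38 and 13.6%. These are matches of letters and no measure of binding.

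On the rows used, type III and type I chains and the type IV pair had the highest levels. Mean levels over the 96 libraries were 405 RPKM for Col3a1, 244 RPKM for Col1a2, 195 RPKM for Col4a2 and 157 RPKM for Col4a1. Col6a1 followed at 94.1 RPKM, Col1a1 at 69.0 RPKM, Col6a2 at 43.8 RPKM, Col6a3 at 38.7 RPKM and Col15a1 at 33.9 RPKM. In all, 15 collagens averaged 5 RPKM or more and 15 averaged below 0.5 RPKM, among them the cartilage collagens Col2a1, Col9a1 and Col10a1. RPKM divides by the length of the row used, and that row was a RefSeq mRNA for 7 of the 44 collagens, so levels of different collagens are only as good as those rows. All 44 also had a RefSeq row. On those rows Col3a1 averaged 153 RPKM, Col4a1 153 RPKM, Col4a2 95.3 RPKM, Col1a2 86.6 RPKM, Col1a1 63.9 RPKM, Col6a1 45.6 RPKM, Col6a2 42.8 RPKM, Col15a1 22.2 RPKM and Col6a3 20.9 RPKM, so the order of Col4a1 and Col4a2, for one, depended on the row.

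The summed RPKM of the 44 collagens differed widely between tissues and groups. In iBAT its mean was 359 ± 47.9 (SD, n = 8) in wildtype at 20 °C, 780.0 ± 185 in wildtype at 30 °C and 917 ± 191 with the high fat diet. The same sums in Ucp1-KO iBAT were 462 ± 108, 1546 ± 316 and 1815 ± 187. Wildtype iWAT held 1609 ± 285, 2136 ± 512 and 2541 ± 459.7, and Ucp1-KO iWAT held 881 ± 143, 1602 ± 318 and 2265 ± 588, in the same order. The make-up differed too: fibrillar collagens made up 67.4% ± 4.79 (SD, n = 8) of collagen RPKM in wildtype iWAT at 30 °C and 40.8% ± 7.10 in wildtype iBAT at 30 °C. Type IV made up 16.0% ± 3.28 and 44.2% ± 7.68 of the same groups, and type VI 12.5% ± 1.65 and 10.9% ± 1.27. Within iBAT the wildtype on high fat had the largest mean share of type IV, 49.6% ± 4.63, and the Ucp1-KO on high fat the smallest, 32.4% ± 4.63. On RefSeq rows the fibrillar share was 57.9% ± 5.80 and 31.6% ± 6.43 in wildtype iWAT and iBAT at 30 °C, that of type IV 22.0% ± 4.08 and 52.2% ± 7.12, and that of type VI 14.9% ± 1.98 and 11.7% ± 1.22. There too type IV had its largest mean share within iBAT in the wildtype on high fat, 57.1% ± 3.95, and its smallest in the Ucp1-KO on high fat, 41.3% ± 4.75. Shares were described and not tested.

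**Figure D1:**
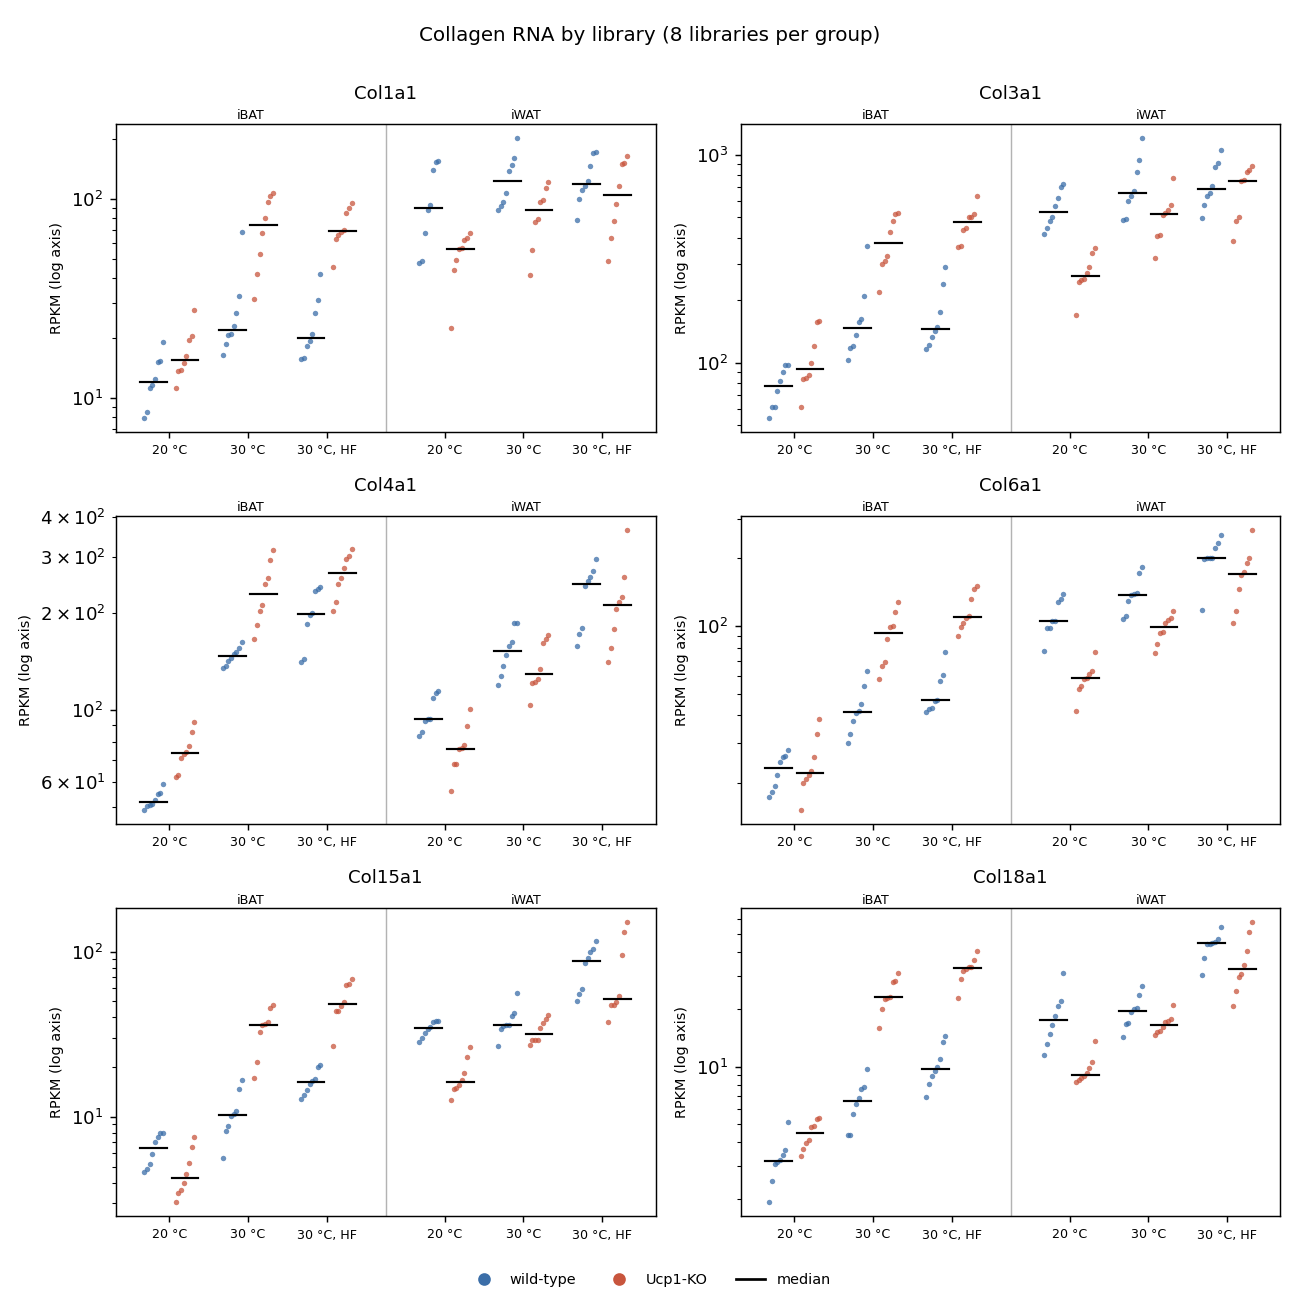
RPKM of 6 collagens on a log axis in each library, by tissue, housing and diet, with wildtype and Ucp1-KO in separate colours, libraries of a group drawn in order of their value and a bar at each group median (n = 8 per group). Col15a1 and Col18a1 lay below 10 RPKM in every iBAT library at 20 °C, and Col3a1 was higher in every wildtype iWAT library than in every wildtype iBAT library under the same housing and diet.

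**Figure D2:**
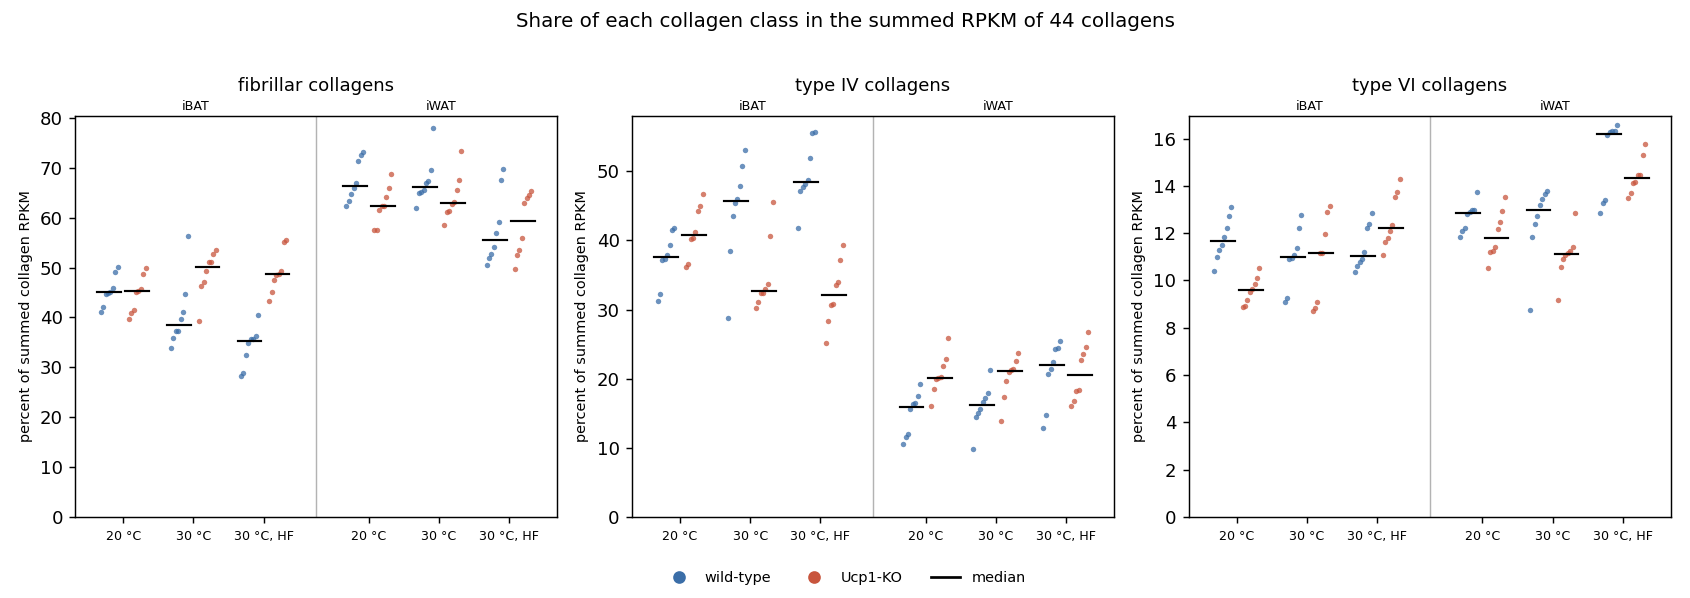
Share of fibrillar, type IV and type VI collagens in the summed RPKM of the 44 collagens in each library, in percent, on the rows of highest mean, with a bar at each group median (n = 8 per group). The fibrillar share averaged 67.4% in wildtype iWAT and 40.8% in wildtype iBAT at 30 °C, and the type IV share 16.0% and 44.2%, values that were 57.9%, 31.6%, 22.0% and 52.2% on RefSeq rows.

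Depth recovered from the spacing of low RPKM values was 8.91 to 19.2 M reads for a library, and the median library had 11.9 M. Ucp1 separated the genotypes in iBAT. At 30 °C on control diet it gave 7328, 8200.4 and 9281 RPKM (lowest, median, highest) in wildtype and 564, 679 and 1112 RPKM in Ucp1-KO. At 20 °C it gave 2428, 4016 and 4549.5 RPKM in wildtype, below every wildtype library at 30 °C, and 867, 993 and 1145 RPKM in Ucp1-KO. In iWAT its ranges overlapped, so it does not check the labels there. Its iWAT medians in wildtype and Ucp1-KO were 97.1 and 266 RPKM at 20 °C and 14.9 and 83.1 RPKM at 30 °C on control diet. Summed skeletal muscle markers passed 2000 RPKM or epithelial markers 20 RPKM in 18 libraries of 10 groups. Cartilage and bone markers summed to at most 2.01 RPKM in any library. Summed markers of fat cells had group medians of 12828 to 21689 RPKM in iBAT. The median of all tested genes was itself not at 0 in several comparisons; where it was beyond 0.1 on the log2 scale, it is given with the collagens and so are the counts after median-ratio scaling and quantile normalization. Differences below are first group minus second on log2(RPKM + 1), a scale that understates changes of low genes, with the standard error, and adjusted p-values are Benjamini-Hochberg values over all tested genes with a threshold of 0.05.

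In wildtype iBAT, collagens of every main class were lower at 20 °C than at 30 °C, and the type IV pair had the smallest p-values. Of 28 collagens tested, 1 was higher and 17 lower, where 11.6% of all tested genes were higher and 33.0% lower. Over all genes the median was -0.12 and that of the collagens -0.58. Lower were 6 of 8 fibrillar collagens, 2 of 5 chains of type IV, 3 of 3 of type VI and both multiplexins, and 1 fibrillar collagen, Col11a2, named after its values were seen, was higher. After median-ratio scaling 1 collagen was higher and 16 lower, and after quantile normalization 1 was higher and 16 lower. Across all genes, 26.1% of calls were on the higher side as deposited, 49.7% after median-ratio scaling and 49.7% after quantile normalization.

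Col4a1 and Col4a2 together make the common network of type IV. At 20 °C, Col4a1 stood at 49.1, 51.9 and 58.8 RPKM (lowest, median and highest of 8 libraries), and at 30 °C at 136, 148 and 164 RPKM. Every library at 20 °C was below every library at 30 °C. Col4a2 ran at 62.0, 75.7 and 102 RPKM and 167, 181 and 202 RPKM, again without overlap, a difference of -1.23 ± 0.10 (limma adjusted p = 3.53e-14).

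Col3a1, the chain of type III fibrils, stood at 54.6, 77.7 and 97.7 RPKM at 20 °C and 103, 147 and 364 RPKM at 30 °C. The groups did not overlap, and the difference was -1.05 ± 0.21 (limma adjusted p = 6.53e-05). Col1a1, a chain of type I, gave 7.96, 12.0 and 19.1 RPKM and 16.3, 21.9 and 68.3 RPKM, with overlapping groups and 1 library at 30 °C far above the others. The difference of Col1a1 was -1.01 ± 0.24 (limma adjusted p = 5.19e-04), and -0.91 (limma adjusted p = 0.00207) without the 18 muscle- or epithelium-rich libraries, among which that library falls.

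Col6a1, which pairs with Col6a2 and Col6a3 in type VI filaments, gave 17.3, 23.2 and 28.0 RPKM at 20 °C and 30.0, 41.4 and 62.7 RPKM at 30 °C. No library at 20 °C reached the lowest at 30 °C, with a difference of -0.88 ± 0.16 (limma adjusted p = 1.71e-05). Col6a2 and Col6a3 differed by -1.02 ± 0.19 (limma adjusted p = 2.03e-05) and -1.02 ± 0.20 (limma adjusted p = 5.49e-05). Among the multiplexins, Col18a1, whose cleaved end is endostatin, fell by 0.82 ± 0.14 and Col15a1 by 0.62 ± 0.19 (limma adjusted p = 5.37e-06 and 0.00573). In total, 9 of 28 collagens had groups that did not overlap, against 17.2% of all tested genes.

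In Ucp1-KO iBAT, fibrillar, type IV, type VI and multiplexin collagens were also lower at 20 °C. Of 28 collagens tested, 0 were higher and 24 lower, where 13.9% of all tested genes were higher and 59.5% lower. Before adjustment, at a limma p below 0.05, 0 were higher. The lower collagens took in 8 of 8 fibrillar collagens, 3 of 5 of type IV, 3 of 3 of type VI and both multiplexins. All tested genes had a median of -0.34 and that of the collagens -1.30. After median-ratio scaling 1 collagen was higher and 20 lower, and after quantile normalization 3 were higher and 18 lower. Among the genes called, 18.9% were on the higher side as deposited, 46.9% after median-ratio scaling and 53.2% after quantile normalization. Groups did not overlap for 16 of the 28 collagens and 32.8% of all tested genes.

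Col15a1 differed most among the collagens named here. At 20 °C it stood at 3.06, 4.23 and 7.53 RPKM and at 30 °C at 17.2, 36.2 and 47.8 RPKM. All 8 libraries at 20 °C were below all 8 at 30 °C, a difference of -2.60 ± 0.19 (limma adjusted p = 3.01e-16).

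Col18a1 gave 3.36, 4.47 and 5.35 RPKM at 20 °C and 15.9, 23.2 and 31.2 RPKM at 30 °C. The groups stood apart, by -2.19 ± 0.14 (limma adjusted p = 1.21e-17). Col1a1 gave 11.2, 15.6 and 27.6 RPKM and 31.3, 74.0 and 107 RPKM, also apart, with a difference of -1.95 ± 0.24 (limma adjusted p = 7.69e-10). Col6a3, the longest of the common type VI chains, differed by -2.02 ± 0.20 (limma adjusted p = 4.49e-12) and Col4a1 by -1.62 ± 0.11 (limma adjusted p = 5.52e-17).

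The difference of these differences was tested as genotype by temperature. Of 28 collagens, 1 had a positive and 17 a negative term, against 11.9% and 40.5% of all tested genes, and the median over all genes was -0.24. Negative means that the level at 20 °C relative to 30 °C was lower in Ucp1-KO than in wildtype. After median-ratio scaling 2 collagens were positive and 12 negative, and after quantile normalization 2 were positive and 13 negative. Of all genes called, 22.7% were on the positive side as deposited, 47.3% after median-ratio scaling and 52.6% after quantile normalization. All 8 fibrillar collagens, 3 of 3 of type VI and both multiplexins had a negative term past the threshold. Of these 3 classes in that order, 5, 2 and 2 after median-ratio scaling and 7, 2 and 2 after quantile normalization had one, and Col6a2 and Col5a3 did not pass after either, at -0.43 (limma adjusted p = 0.164) and -0.37 (limma adjusted p = 0.162) with the first and -0.55 (limma adjusted p = 0.106) and -0.38 (limma adjusted p = 0.154) with the second. None of the 5 chains of type IV had a term past the threshold in limma as deposited, adjusted or at an unadjusted p below 0.05. After scaling, Col4a5, named after its values were seen, had a positive term. It was 0.29 (limma adjusted p = 0.0402) with median-ratio scaling and 0.39 (limma adjusted p = 0.00481) with quantile normalization.

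Col15a1 had a term of -1.98 ± 0.26 (limma adjusted p = 5.65e-08) and Col18a1 of -1.37 ± 0.20 (limma adjusted p = 3.78e-07). Col6a1 had -0.95 ± 0.23 (limma adjusted p = 6.14e-04). For Col4a1 the term was -0.15 ± 0.16 (limma adjusted p = 0.419) and for Col4a2 -0.16 ± 0.14 (limma adjusted p = 0.321), so a difference between the genotypes in the response of the type IV pair was not detected. The terms of Col1a1, -0.94 ± 0.34 (limma adjusted p = 0.0164), and Col3a1, -0.81 ± 0.30 (limma adjusted p = 0.0210), depended on scaling: after median-ratio scaling they were -0.69 (limma adjusted p = 0.0709) and -0.55 (limma adjusted p = 0.0957).

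Most calls among genes that make, process and anchor collagen were also in the lower direction at 20 °C. In wildtype iBAT at 20 °C, 6 of 17 genes of collagen synthesis and folding, 4 of 11 of processing and crosslinking and 8 of 11 fibril partners were lower and none higher, where 33.0% of all tested genes were lower, a share close to that of the first 2 lists. Among basement membrane partners 1 higher and 8 lower of 10 passed, and among receptors and uptake genes 2 higher and 5 lower of 9. The lower genes of these 5 lists numbered 4, 4, 5, 6 and 1 after median-ratio scaling and 4, 4, 4, 6 and 1 after quantile normalization. Serpinh1, the collagen chaperone, differed by -0.80 ± 0.11 (limma adjusted p = 8.10e-08) and Hspg2, which encodes perlecan, by -0.72 ± 0.09 (limma adjusted p = 3.31e-08). Pepd, a dipeptidase that releases proline from collagen fragments, was higher at 20 °C by 1.10 ± 0.16 (limma adjusted p = 3.40e-07). In Ucp1-KO iBAT the lower genes were 16 of 17, 11 of 11, 10 of 11 and 10 of 10 in the lists of synthesis, processing, fibril and basement membrane partners, where 59.5% of all tested genes were lower, and numbered 14, 11, 8 and 8 after median-ratio scaling and 14, 10, 9 and 8 after quantile normalization. P4hb, a subunit of the enzyme that hydroxylates proline, differed by -1.40 ± 0.10 and Loxl2, a crosslinking oxidase, by -1.55 ± 0.13 (limma adjusted p = 8.37e-17 and 6.07e-14). Of the TGF-beta list, 2 higher and 9 lower of 13 passed in wildtype and 13 of 13 were lower in Ucp1-KO. After median-ratio scaling 6 and 10 of them were lower.

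Cell type markers moved as well. Summed fibroblast markers stood at 58.7, 79.1 and 92.1 RPKM in wildtype at 20 °C and 78.5, 93.2 and 191 RPKM at 30 °C, and at 47.5, 65.6 and 98.5 RPKM and 173, 233 and 286 RPKM in Ucp1-KO. Of 8 fibroblast markers, 5 of 8 were lower at 20 °C in wildtype and 8 of 8 in Ucp1-KO. Endothelial markers were lower in 7 of 8 and 8 of 8, and macrophage markers in Ucp1-KO in 9 of 9. Beside these counts, 33.0% of all tested genes were lower in wildtype and 59.5% in Ucp1-KO. The lower fibroblast, endothelial and macrophage markers numbered 8, 4 and 9 after median-ratio scaling and 8, 5 and 8 after quantile normalization in Ucp1-KO, and the lower fibroblast and endothelial markers 3 and 4 after median-ratio scaling and 3 and 5 after quantile normalization in wildtype. Their part in the result was not tested.

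At 20 °C few collagens differed between the genotypes in iBAT. Of 28 collagens tested, 5 were higher and 1 lower, where 24.7% of all tested genes were higher and 13.1% lower. Higher in Ucp1-KO were 1 fibrillar collagen, 2 chains of type IV and 1 multiplexin, no chain of type VI passed, and the lower one was the fibrillar Col11a2, named after its values were seen. After median-ratio scaling 5 collagens were higher and 3 lower, and after quantile normalization 3 were higher and 4 lower. With summed transcripts 7 were higher and 4 lower, and with only the groups of the contrast 8 were higher and 3 lower. Across all genes, 65.4% of calls were on the higher side as deposited, 52.0% after median-ratio scaling and 45.2% after quantile normalization. Col4a1 stood at 62.2, 73.7 and 92.1 RPKM in Ucp1-KO and 49.1, 51.9 and 58.8 RPKM in wildtype. The groups did not overlap, as for 2 of 28 collagens and 12.7% of all tested genes, and the difference was 0.49 ± 0.11 (limma adjusted p = 3.94e-04).

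Col4a2 was higher by 0.49 ± 0.10 (limma adjusted p = 4.53e-05) and Col5a3, a type V chain, by 0.74 ± 0.17 (limma adjusted p = 3.92e-04). Col5a3 gave 3.57, 6.50 and 13.9 RPKM in Ucp1-KO and 2.85, 3.70 and 5.20 RPKM in wildtype, so most but not all Ucp1-KO libraries were above the wildtype. The calls of Col4a1 and Col18a1 depended on scaling: after quantile normalization they were 0.35 (limma adjusted p = 0.0651) and 0.29 (limma adjusted p = 0.0745). The fibrillar and type VI chains gave small differences, 0.41 ± 0.24 for Col1a1 and 0.09 ± 0.16 for Col6a1 (limma adjusted p = 0.172 and 0.721).

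At 30 °C every collagen that passed was higher in Ucp1-KO. Of 28 collagens tested, 20 were higher and 0 lower, where 54.2% of all tested genes were higher and 10.5% lower. Before adjustment, at a limma p below 0.05, 0 were lower. The collagens that rose were 7 of 8 fibrillar, 2 of 5 of type IV, 3 of 3 of type VI and both multiplexins. The median of all genes was 0.27 and that of the collagens 0.67. After median-ratio scaling 16 collagens were higher and 1 lower, and after quantile normalization 16 were higher and 3 lower. Among the genes called, 83.7% were on the higher side as deposited, 51.9% after median-ratio scaling and 42.0% after quantile normalization. On high fat diet, 20 of 28 were higher and 2 lower, against 52.8% and 11.0% of all tested genes, with medians of 0.55 for the collagens and 0.25 for all genes. After median-ratio scaling 15 collagens were higher and 3 lower, and after quantile normalization 14 were higher and 6 lower. Of all genes called, 82.7% were on the higher side as deposited, 51.2% after median-ratio scaling and 41.1% after quantile normalization. Groups did not overlap for 7 collagens at 30 °C on control diet and 10 on high fat, of 28 each, and for 24.7% and 22.9% of all tested genes, which at 30 °C is close to the share of the collagens.

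Col18a1 gave 15.9, 23.2 and 31.2 RPKM in Ucp1-KO and 4.36, 6.59 and 9.77 RPKM in wildtype at 30 °C. On high fat it gave 23.1, 33.0 and 40.4 RPKM and 6.89, 9.70 and 14.5 RPKM. On both diets the lowest Ucp1-KO library was above the highest wildtype library. The differences were 1.74 ± 0.14 (limma adjusted p = 4.80e-14) and 1.59 ± 0.14 (limma adjusted p = 5.10e-13).

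Col15a1 gave 17.2, 36.2 and 47.8 RPKM against 5.60, 10.3 and 16.6 RPKM at 30 °C, and 26.9, 48.0 and 67.9 RPKM against 12.9, 16.2 and 20.6 RPKM on high fat. Here too the genotypes did not overlap on either diet. The differences were 1.59 ± 0.19 (limma adjusted p = 6.16e-10) and 1.54 ± 0.19 (limma adjusted p = 1.52e-09).

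Col1a1 stood at 31.3, 74.0 and 107 RPKM in Ucp1-KO and 16.3, 21.9 and 68.3 RPKM in wildtype at 30 °C, where 1 wildtype library reached into the Ucp1-KO range. The difference was 1.36 ± 0.24 (limma adjusted p = 2.99e-06), and 1.45 (limma adjusted p = 9.37e-06) without the muscle- or epithelium-rich libraries. On high fat Col1a1 gave 45.7, 68.6 and 95.7 RPKM and 15.7, 20.0 and 42.0 RPKM, without overlap, a difference of 1.62 ± 0.24 (limma adjusted p = 1.07e-07). Col1a2 on high fat gave 145, 256 and 315 RPKM and 49.7, 65.6 and 112 RPKM, also without overlap, and Col3a1 gave 362, 474 and 630.4 RPKM and 117, 146 and 288 RPKM. Their differences were 1.80 ± 0.20 (limma adjusted p = 2.16e-10) and 1.50 ± 0.21 (limma adjusted p = 4.76e-08).

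On the rows used, the type IV pair was higher too. Col4a1 gave 167, 230.3 and 314 RPKM in Ucp1-KO at 30 °C and 136, 148 and 164 RPKM in wildtype, just apart, by 0.64 ± 0.11 (limma adjusted p = 2.25e-06). On high fat it gave 203, 267 and 316 RPKM and 141, 199 and 241 RPKM, with overlap, by 0.43 ± 0.11 (limma adjusted p = 7.85e-04). After median-ratio scaling the high fat difference was 0.12 (limma adjusted p = 0.340) for Col4a1 and 0.02 (limma adjusted p = 0.820) for Col4a2. Col6a1 was higher by 1.03 ± 0.16 (limma adjusted p = 3.91e-07) at 30 °C and 1.18 ± 0.16 (limma adjusted p = 3.16e-08) on high fat, with 90.3, 109 and 151 RPKM and 41.3, 46.6 and 76.8 RPKM on high fat and no overlap.

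**Figure D3:**
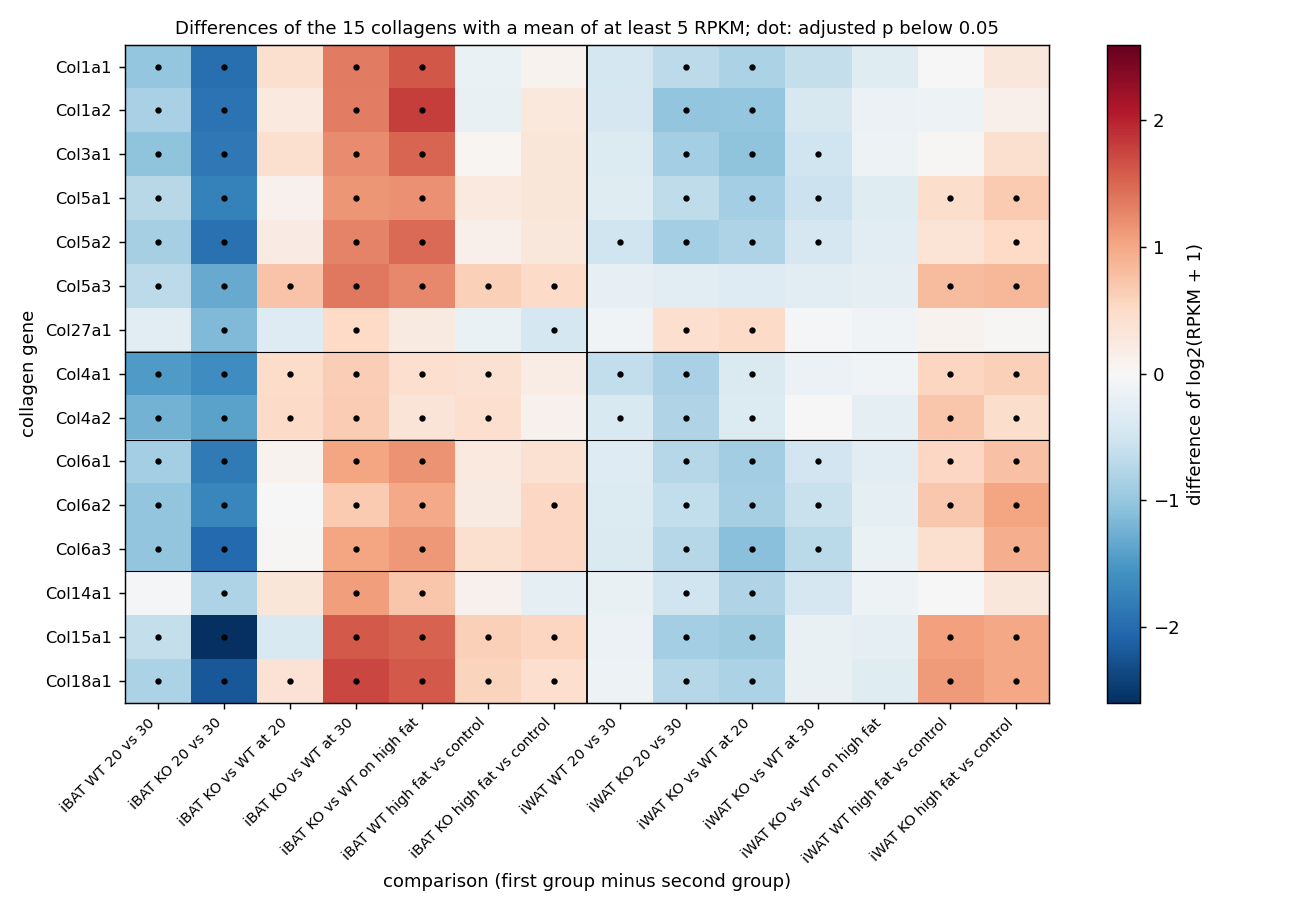
Difference of log2(RPKM + 1), first group minus second, for the 15 collagens that averaged 5 RPKM or more in 14 comparisons within a tissue, 8 libraries per group, with red for higher, blue for lower and a dot where the limma adjusted p was below 0.05. The iBAT columns reach from -2.60 for Col15a1 (Ucp1-KO, 20 against 30 °C) to 1.80 for Col1a2 (Ucp1-KO against wildtype on high fat).

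Of the genes around collagen in iBAT at 30 °C, 15 of 17 of synthesis and folding, 11 of 11 of processing and crosslinking, 6 of 9 receptors and uptake genes, 10 of 11 fibril partners and 10 of 10 basement membrane partners were higher in Ucp1-KO and none lower, where 54.2% of all tested genes were higher. Higher genes of these lists numbered 10, 9, 4, 9 and 7 after median-ratio scaling and 10, 7, 5, 9 and 7 after quantile normalization. On high fat the calls were 11 higher and 1 lower of 17, 9 higher and 0 lower of 11, 7 higher and 2 lower of 9, 10 higher and 1 lower of 11 and 8 higher and 0 lower of 10, against 52.8% higher and 11.0% lower of all tested genes, and the higher ones numbered 7, 6, 3, 8 and 6 after median-ratio scaling and 8, 6, 3, 8 and 4 after quantile normalization. At 30 °C, Bmp1, which cuts the end off procollagen, was higher by 1.43 ± 0.14 and Ddr2, a receptor for fibrillar collagen, by 1.23 ± 0.12 (limma adjusted p = 3.26e-12 and 1.15e-11). Ctsk, a protease that cuts collagen, was higher by 1.78 ± 0.21 and Nid1, which links laminin to type IV collagen, by 0.95 ± 0.12 (limma adjusted p = 4.74e-10 and 1.99e-09). Of the TGF-beta list, 12 higher and 1 lower of 13 passed at 30 °C and 11 higher and 1 lower of 13 on high fat, and the higher ones were 10 and 6 after median-ratio scaling. At 20 °C the lists gave 2 higher and 2 lower of 17, 2 higher and 1 lower of 11, 1 higher and 1 lower of 9, 3 higher and 0 lower of 11, 1 higher and 1 lower of 10 and 4 higher and 3 lower of 13, against 24.7% higher and 13.1% lower of all tested genes.

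Fibroblast markers summed to 232, 321 and 488 RPKM in Ucp1-KO iBAT on high fat and 105, 129 and 214 RPKM in wildtype, and 8 of 8 and 8 of 8 of these markers were higher in Ucp1-KO on control diet at 30 °C and on high fat. At 20 °C, 0 were higher and 0 lower. Macrophage markers summed to 246, 1096 and 1538 RPKM in Ucp1-KO and 108, 127 and 194 RPKM in wildtype at 30 °C, with 8 higher and 1 lower of 9 there and 8 higher and 1 lower of 9 on high fat. Of all tested genes 54.2% and 52.8% were higher in these comparisons at 30 °C. The higher fibroblast markers numbered 8 and 5 after median-ratio scaling and the higher macrophage markers 8 and 8. Their part in the result was not tested.

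On high fat diet at 30 °C both multiplexins and some type IV, V and VI chains were higher, while the type I and III chains did not pass the threshold in any of the 4 comparisons. In wildtype iBAT, 9 of 28 collagens were higher and 0 lower, against 18.5% and 14.5% of all tested genes. In Ucp1-KO iBAT, 6 were higher and 1 lower, against 8.35% and 8.02%. In wildtype iWAT, 9 of 32 were higher and 0 lower, against 9.69% and 3.84%, and in Ucp1-KO iWAT 11 were higher and 0 lower, against 16.1% and 8.31%. At an unadjusted limma p below 0.05, 1, 2, 5 and 0 collagens were lower in these 4 comparisons. Without the muscle- or epithelium-rich libraries 3 collagens passed in Ucp1-KO iBAT and 4 in wildtype iWAT. In Ucp1-KO iWAT, 65.9% of all genes called were on the higher side, and 43.8% after median-ratio scaling. Col3a1 differed by 0.04 ± 0.21 and 0.31 ± 0.21 in wildtype and Ucp1-KO iBAT and by 0.04 ± 0.19 and 0.41 ± 0.19 in iWAT (limma adjusted p = 0.903, 0.339, 0.928 and 0.110). The multiplexins passed in all 4 comparisons, but in Ucp1-KO iBAT both calls were lost with summed transcripts, Col15a1 at 0.58 (limma adjusted p = 0.0679) and Col18a1 at 0.45 (limma adjusted p = 0.0516).

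In wildtype iWAT, Col18a1 gave 30.5, 44.7 and 54.5 RPKM on high fat and 14.3, 19.7 and 26.4 RPKM on control diet. The groups did not overlap, as for 2 of 32 collagens and 2.13% of all tested genes, and the difference was 1.11 ± 0.16 (limma adjusted p = 4.23e-06). Col15a1 gave 50.6, 88.2 and 116 RPKM and 26.7, 36.0 and 56.2 RPKM, overlapping at the edges, a difference of 1.06 ± 0.20 (limma adjusted p = 2.57e-04). In Ucp1-KO iWAT, Col15a1 gave 37.5, 51.7 and 150.3 RPKM and 27.2, 31.9 and 41.3 RPKM, with 1 or more high fat libraries far above the median, and differed by 1.01 ± 0.20 (limma adjusted p = 1.93e-04).

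In iBAT the difference of Col18a1 was 0.58 ± 0.14 (limma adjusted p = 0.00135) in wildtype and 0.43 ± 0.14 (limma adjusted p = 0.0300) in Ucp1-KO. No collagen had groups without overlap in either genotype there, where 6.72% of all tested genes did in wildtype and 2.30% in Ucp1-KO. The type IV pair rose on high fat in wildtype iBAT, Col4a1 by 0.40 ± 0.11 (limma adjusted p = 0.00437) and Col4a2 by 0.44 ± 0.10 (limma adjusted p = 3.72e-04), and in wildtype iWAT by 0.56 ± 0.14 (limma adjusted p = 0.00592) and 0.72 ± 0.14 (limma adjusted p = 3.82e-04). The iWAT call of Col4a1 was lost without the muscle- or epithelium-rich libraries, at 0.54 (limma adjusted p = 0.0519), and after quantile normalization, at 0.42 (limma adjusted p = 0.0512). In Ucp1-KO iBAT they differed by 0.18 ± 0.11 and 0.12 ± 0.10 (limma adjusted p = 0.272 and 0.454), which did not pass.

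Chains of type VI were higher on high fat in iWAT. Col6a1 gave 103, 171 and 267 RPKM on high fat and 75.5, 98.4 and 116 RPKM on control diet in Ucp1-KO, partly overlapping, a difference of 0.76 ± 0.15 (limma adjusted p = 1.45e-04). Col6a2 and Col6a3 rose by 1.02 ± 0.19 (limma adjusted p = 6.43e-05) and 0.94 ± 0.17 (limma adjusted p = 5.82e-05). In wildtype iWAT, Col6a1 and Col6a2 rose by 0.53 ± 0.15 (limma adjusted p = 0.0110) and 0.70 ± 0.19 (limma adjusted p = 0.00844), calls that were lost without the muscle- or epithelium-rich libraries, at 0.52 (limma adjusted p = 0.0902) and 0.67 (limma adjusted p = 0.0763). Col6a2 also rose in Ucp1-KO iBAT, by 0.54 ± 0.19 (limma adjusted p = 0.0443). Col6a1 and Col6a3 there differed by 0.40 ± 0.16 and 0.53 ± 0.20, which did not pass (limma adjusted p = 0.0828 and 0.0653). No chain of type VI passed in wildtype iBAT. Col5a3, a type V chain, rose in wildtype iBAT by 0.62 ± 0.17 (limma adjusted p = 0.00344), in wildtype iWAT by 0.82 ± 0.17 (limma adjusted p = 4.62e-04) and in Ucp1-KO iWAT by 0.86 ± 0.17 (limma adjusted p = 1.25e-04). In Ucp1-KO iBAT it also rose, by 0.50 ± 0.17 (limma adjusted p = 0.0321). Col27a1, a fibrillar collagen known from cartilage, fell in Ucp1-KO iBAT by 0.45 ± 0.16 (limma adjusted p = 0.0472), and was -0.24 (limma adjusted p = 0.534) without those libraries.

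**Figure D4:**
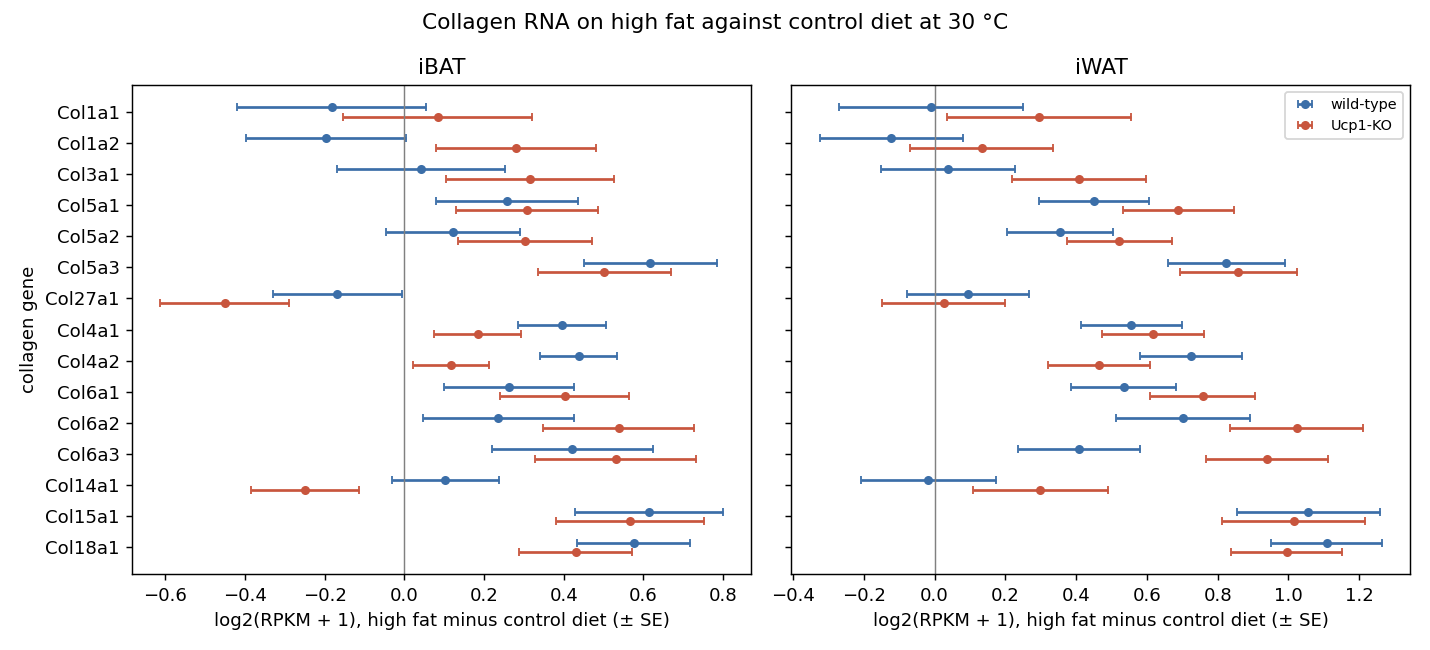
Difference of log2(RPKM + 1) between high fat and control diet at 30 °C for 15 collagens, with bars of 1 standard error, in iBAT and iWAT of wildtype and Ucp1-KO mice (n = 8 per group). In iWAT, Col15a1 and Col18a1 lie near 1 in both genotypes (1.06 and 1.11 in wildtype), while Col1a1 lies near 0 in wildtype (-0.01).

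Whether the diet response differed by genotype was tested as genotype by diet. In iBAT 0 of 28 collagens had a positive and 2 a negative term, against 2.78% and 3.78% of all tested genes. At an unadjusted limma p below 0.05, 1 was positive. The negative terms were those of Col11a2, -0.70 ± 0.18 (limma adjusted p = 0.0139), and Col20a1, -0.52 ± 0.15 (limma adjusted p = 0.0267), both named here after their values were seen, and 0 passed without the muscle- or epithelium-rich libraries. In iWAT 0 of 32 passed in either direction by limma, against 0.101% and 1.23% of all tested genes, with 1 at an unadjusted p below 0.05, Col6a3 at 0.53, and 0 under every other setting tried. The iWAT terms of Col15a1 and Col18a1 were -0.04 ± 0.29 and -0.11 ± 0.22 (limma adjusted p = 0.949 and 0.808).

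The high fat calls of the surrounding lists were in the higher direction in wildtype iBAT, with 10 of 17 of synthesis and folding, 5 of 11 of processing and crosslinking, 5 of 11 fibril partners, 8 of 10 basement membrane partners, 4 of 9 receptors and uptake genes and 7 of 13 of the TGF-beta list, where 18.5% of all tested genes were higher. In Ucp1-KO iBAT they numbered 3 of 17, 1 higher and 1 lower of 11, 3 of 11, 1 of 10, 3 of 9 and 2 of 13, against 8.35% of all tested genes higher and 8.02% lower. In iWAT the higher genes were 7 of 17, 3 of 13, 5 of 11 and 5 of 11 in wildtype and 10 of 17, 7 of 13, 6 of 11 and 7 of 11 in Ucp1-KO, against 9.69% and 16.1% of all tested genes. The receptors gave 3 higher and 1 lower of 10 and 5 higher and 1 lower of 10 and the TGF-beta list 4 of 13 and 3 of 13 there. Serpinh1 was higher in iWAT by 0.78 ± 0.16 in wildtype and 0.92 ± 0.16 in Ucp1-KO (limma adjusted p = 4.58e-04 and 2.09e-05). Prelp, which binds collagen and perlecan, was higher in wildtype by 1.46 ± 0.25 (limma adjusted p = 7.23e-05). Summed endothelial markers had medians of 469 RPKM on high fat and 286 RPKM on control diet in wildtype iBAT, where 8 of 8 were higher against 18.5% of all tested genes, and 369 RPKM and 295 RPKM in wildtype iWAT. The skeletal muscle markers with the smallest p were lower on high fat in iWAT of both genotypes. Mylpf differed by -3.64 ± 1.03 in wildtype and -3.47 ± 1.03 in Ucp1-KO (limma adjusted p = 0.0126 and 0.0111). Their part in the result was not tested.

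In wildtype iWAT few collagens passed between the temperatures, most of them of type IV. Of 32 collagens tested, 0 were higher and 5 lower, where 7.25% of all tested genes were higher and 12.4% lower, the second close to the share of the collagens. Before adjustment, at a limma p below 0.05, 0 were higher and 11 lower, among them Col1a2, Col5a1, Col6a1 and Col6a3. Past the threshold, 4 of 5 chains of type IV and 1 of 9 fibrillar collagens were lower at 20 °C, and no chain of type VI and no multiplexin passed. Of the type IV chains, Col4a3 and Col4a4 averaged only 0.689 and 1.10 RPKM over the 96 libraries. Col4a1 stood at 83.1, 94.1 and 115 RPKM at 20 °C and 120.2, 153 and 186 RPKM at 30 °C. The groups did not overlap, as for 1 of 32 collagens and 4.28% of all tested genes, and the difference was -0.63 ± 0.14 (limma adjusted p = 0.00166). Col4a2 fell by 0.39 ± 0.14 (limma adjusted p = 0.0463) and Col5a2, a type V chain, by 0.51 ± 0.15 (limma adjusted p = 0.0136). Over all genes the median was -0.10 and that of the collagens -0.22. After median-ratio scaling 0 collagens were higher and 1 lower, and after quantile normalization 0 were higher and 4 lower. Across all genes, 37.0% of calls were on the higher side as deposited, 71.0% after median-ratio scaling and 64.7% after quantile normalization. Without the muscle- or epithelium-rich libraries 1 collagen passed. Col3a1 gave 415, 533 and 726 RPKM and 488, 653 and 1202 RPKM, largely overlapping, a difference of -0.35 ± 0.19 (limma adjusted p = 0.173).

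In Ucp1-KO iWAT, all 4 main classes held collagens that were lower at 20 °C. Of 32 collagens tested, 1 was higher and 23 lower, where 9.02% of all tested genes were higher and 51.4% lower. The lower ones were 6 of 9 fibrillar collagens, 5 of 5 of type IV, 6 of 6 of type VI and both multiplexins. All tested genes had a median of -0.25 and that of the collagens -0.48. After median-ratio scaling 2 collagens were higher and 11 lower, and after quantile normalization 2 were higher and 12 lower. Among the genes called, 14.9% were on the higher side as deposited, 63.3% after median-ratio scaling and 53.6% after quantile normalization. Groups did not overlap for 7 of 32 collagens and 13.6% of all tested genes. The higher collagen was Col27a1, with 4.31, 5.20 and 7.98 RPKM at 20 °C and 3.05, 3.70 and 4.41 RPKM at 30 °C, overlapping, a difference of 0.43 ± 0.17 (limma adjusted p = 0.0290), which was 0.43 (limma adjusted p = 0.0631) without the muscle- or epithelium-rich libraries.

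Col1a2 gave 114, 168 and 224 RPKM at 20 °C and 239, 354 and 619 RPKM at 30 °C. All libraries at 20 °C were lower, and the difference was -1.03 ± 0.20 (limma adjusted p = 3.78e-05). Col4a1 gave 56.0, 75.9 and 101 RPKM and 104, 129.9 and 172 RPKM, just apart, a difference of -0.84 ± 0.14 (limma adjusted p = 4.23e-06). Col15a1 and Col6a3 fell by 0.89 ± 0.20 and 0.75 ± 0.17 (limma adjusted p = 2.86e-04 and 3.07e-04). Col1a1 differed by -0.67 ± 0.26 (limma adjusted p = 0.0242), and by -0.32 (limma adjusted p = 0.316) after median-ratio scaling.

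The genotype by temperature term in iWAT passed for 0 of 32 collagens in limma in either direction, against 2.15% positive and 11.1% negative of all tested genes, with an all-gene median of -0.16. At an unadjusted p below 0.05 there were 2 positive and 3 negative terms. Of all genes called, 16.2% were on the positive side as deposited, 83.8% after median-ratio scaling and 72.5% after quantile normalization. After median-ratio scaling 2 passed, after quantile normalization 1, with summed transcripts 2, with RefSeq rows 2 and with only the groups of the contrast 4. The term was -0.60 ± 0.29 for Col1a2, -0.21 ± 0.20 for Col4a1, -0.40 ± 0.21 for Col6a1 and -0.74 ± 0.29 for Col15a1 (limma adjusted p = 0.156, 0.498, 0.197 and 0.0754).

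Between the genotypes at 20 °C, iWAT collagens were lower in Ucp1-KO. Of 32 collagens tested, 1 was higher and 21 lower, where 9.85% of all tested genes were higher and 55.0% lower. The lower ones were 5 of 9 fibrillar collagens, 3 of 5 of type IV, 6 of 6 of type VI and both multiplexins. The median of all genes was -0.27 and that of the collagens -0.46. After median-ratio scaling 2 collagens were higher and 15 lower, and after quantile normalization 3 were higher and 14 lower. Across all genes, 15.2% of calls were on the higher side as deposited, 54.8% after median-ratio scaling and 50.8% after quantile normalization. Groups did not overlap for 8 of 32 collagens and 18.1% of all tested genes. The higher one was Col27a1, at 0.50 ± 0.17 (limma adjusted p = 0.0114), which was 0.40 (limma adjusted p = 0.0654) without the muscle- or epithelium-rich libraries.

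Col3a1 gave 169.8, 261 and 356 RPKM in Ucp1-KO and 415, 533 and 726 RPKM in wildtype. No Ucp1-KO library reached the lowest wildtype library, and the difference was -1.04 ± 0.19 (limma adjusted p = 1.07e-05). Col6a3 gave 11.1, 20.9 and 27.2 RPKM and 33.5, 42.6 and 54.3 RPKM, again apart, a difference of -1.08 ± 0.17 (limma adjusted p = 1.34e-06). Col15a1 gave 12.6, 16.2 and 26.6 RPKM and 28.3, 34.4 and 37.8 RPKM, apart as well, a difference of -0.92 ± 0.20 (limma adjusted p = 1.44e-04). The type IV pair differed by -0.37 ± 0.14 (limma adjusted p = 0.0238) for Col4a1 and -0.36 ± 0.14 (limma adjusted p = 0.0249) for Col4a2, which after median-ratio scaling were 0.01 and 0.01 (limma adjusted p = 0.979 and 0.969).

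At 30 °C on control diet the calls lay in fibrillar, type VI and FACIT collagens. Of 32 collagens tested, 0 were higher and 8 lower, where 7.54% of all tested genes were higher and 16.2% lower. Before adjustment, at a limma p below 0.05, 0 were higher. Without the muscle- or epithelium-rich libraries 2 passed. The lower ones were 3 of 9 fibrillar collagens and 4 of 6 of type VI, with Col20a1 of the FACIT class, named after its values were seen. Over all genes the median was -0.12 and that of the collagens -0.24. After median-ratio scaling 0 collagens were higher and 1 lower, and after quantile normalization 0 were higher and 6 lower. Among the genes called, 31.7% were on the higher side as deposited, 69.4% after median-ratio scaling and 65.2% after quantile normalization. Col6a3 gave 23.3, 35.5 and 44.7 RPKM in Ucp1-KO and 38.6, 55.7 and 84.2 RPKM in wildtype, overlapping, a difference of -0.70 ± 0.17 (limma adjusted p = 0.00384). Col6a1 and Col6a2 differed by -0.50 ± 0.15 (limma adjusted p = 0.0144) and -0.57 ± 0.19 (limma adjusted p = 0.0270), which were lost without the muscle- or epithelium-rich libraries, at -0.53 (limma adjusted p = 0.0588) and -0.68 (limma adjusted p = 0.0518). The type IV pair differed by -0.15 ± 0.14 and 0.02 ± 0.14 (limma adjusted p = 0.436 and 0.940). On high fat, 0 of 32 collagens passed in either direction by limma, against 0.195% higher and 0.0881% lower of all tested genes. At an unadjusted p below 0.05, 0 were higher and 2 lower, Col5a1 at -0.32 ± 0.16 and Col28a1 at -0.28 ± 0.13, and 0 passed under every other setting tried.

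Most genes of the surrounding lists in iWAT were lower in Ucp1-KO at 20 °C as deposited: 17 of 17 of synthesis and folding, 9 of 11 fibril partners, 10 of 11 basement membrane partners, 8 of 10 receptors and uptake genes and 10 of 13 of the TGF-beta list. Processing and crosslinking gave 1 higher and 10 lower of 13. Beside them, 55.0% of all tested genes were lower. The lower genes of the 6 lists in that order numbered 6, 3, 2, 2, 2 and 6 after median-ratio scaling and 7, 6, 6, 3, 3 and 7 after quantile normalization. Dpt, dermatopontin, which binds decorin and fibrils, fell by 1.36 ± 0.16 (limma adjusted p = 3.24e-09), and Bmp1 by 0.95 ± 0.14 (limma adjusted p = 2.98e-07). Dpt is also among the fibroblast markers that are counted below. Between the temperatures, 12 of 17, 11 of 13, 5 of 10, 9 of 11, 10 of 11 and 12 of 13 genes of the 6 lists were lower at 20 °C in Ucp1-KO, in the order synthesis, processing, receptors, fibril partners, basement membrane partners and TGF-beta, against 51.4% of all tested genes. They numbered 4, 5, 2, 4, 4 and 6 after median-ratio scaling and 7, 6, 3, 5, 6 and 5 after quantile normalization. In wildtype iWAT the same lists gave 5 of 17, 4 of 13, 1 higher and 2 lower of 10, 5 of 11, 4 of 11 and 5 of 13, against 12.4%. Between the genotypes at 30 °C they gave 9 of 17, 6 of 13, 1 higher and 2 lower of 10, 3 of 11, 3 of 11 and 2 of 13 lower, against 16.2%, and on high fat 0 in every list in limma, against 0.195% of all tested genes higher and 0.0881% lower.

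Summed fibroblast markers gave 209, 329 and 417 RPKM in Ucp1-KO iWAT at 20 °C and 503, 705 and 758 RPKM in wildtype, and 523, 609 and 765 RPKM and 632, 821 and 947 RPKM at 30 °C. Of 8 such markers, 8 of 8 were lower in Ucp1-KO at 20 °C, 4 of 8 at 30 °C and 0 on high fat, and 8 of 8 were lower at 20 °C than at 30 °C in Ucp1-KO against 1 of 8 in wildtype. The shares of all tested genes that were lower in these 5 comparisons were 55.0%, 16.2%, 0.0881%, 51.4% and 12.4%. The lower fibroblast markers numbered 7 after median-ratio scaling and 7 after quantile normalization between the genotypes at 20 °C and 5 after median-ratio scaling and 6 after quantile normalization between the temperatures in Ucp1-KO. Between the genotypes at 20 °C other markers were lower too: 8 of 8 of lymphocytes, 7 of 9 of macrophages, 6 of 8 of endothelium, 4 of 8 of mural cells, 4 of 6 of epithelium, 2 of 8 of fat cells and 1 of 1 of cartilage and bone, with 1 higher and 6 lower of 8 of Schwann cells and 0 higher and 0 lower of 7 of skeletal muscle. Summed epithelial markers were 1.00, 2.26 and 3.03 RPKM in Ucp1-KO and 3.37, 7.92 and 30.9 RPKM in wildtype there. Their part in the result was not tested.

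Brown and inguinal fat differed in most collagens in wildtype, as they did in most tested genes. At 30 °C and on high fat the share of collagens called in either direction was close to that of all tested genes. At 20 °C, 3 of 32 collagens were higher and 26 lower in iBAT than in iWAT, against 15.8% and 64.4% of all tested genes. At 30 °C the counts were 4 and 23, against 19.5% and 61.8%, and on high fat 4 and 22, against 16.7% and 61.9%. The higher and lower counts were 4 and 22 after median-ratio scaling and 8 and 18 after quantile normalization at 20 °C, 7 and 22 after median-ratio scaling and 8 and 19 after quantile normalization at 30 °C and 9 and 20 after median-ratio scaling and 8 and 19 after quantile normalization on high fat. Among all calls, 19.8%, 24.0% and 21.2% were higher in iBAT, and 45.8%, 44.5% and 45.2% after median-ratio scaling. The median of all genes in iBAT against iWAT was -0.43, -0.43 and -0.40, and that of the collagens -0.94, -1.15 and -0.92. All 6 chains of type VI and both multiplexins were lower in iBAT in each of the 3 comparisons, as were 7 of 9 fibrillar collagens. Of these classes, Col6a4, Col6a5, Col6a6 and Col11a1 passed the filter only through iWAT libraries and were not tested within iBAT. A lower level of these chains in iBAT is therefore largely set by the filter, and they are among the 32 in every comparison of depots. Groups did not overlap for 21, 20 and 21 of the 32 collagens, against 51.4%, 59.7% and 48.6% of all tested genes, close to the share of the collagens at 30 °C.

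Col3a1 at 30 °C gave 103, 147 and 364 RPKM in iBAT and 488, 653 and 1202 RPKM in iWAT. Every iBAT library was below every iWAT library, and the difference was -2.14 ± 0.20 (limma adjusted p = 1.39e-16). Col14a1, a FACIT collagen that binds fibrils, gave 0.989, 1.38 and 3.39 RPKM and 7.75, 9.79 and 26.8 RPKM, also apart, a difference of -2.23 ± 0.17 (limma adjusted p = 6.20e-22). Col6a1 gave 30.0, 41.4 and 62.7 RPKM and 107, 138 and 183 RPKM, also apart, a difference of -1.68 ± 0.16 (limma adjusted p = 6.25e-17).

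Col4a1 at 30 °C gave 136, 148 and 164 RPKM in iBAT and 120.2, 153 and 186 RPKM in iWAT, in overlapping ranges, a difference of -0.04 ± 0.13 (limma adjusted p = 0.765). At 20 °C it was lower in iBAT, a difference of -0.88 ± 0.13 (limma adjusted p = 2.94e-09). Its place depended on scaling at 30 °C, where median-ratio scaling gave 0.47 (limma adjusted p = 8.13e-04). Col27a1 went the other way from most collagens. It gave 12.3, 18.2 and 22.8 RPKM in iBAT and 2.76, 3.64 and 5.31 RPKM in iWAT, without overlap, a difference of 1.94 ± 0.17 (limma adjusted p = 2.02e-18).

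In Ucp1-KO mice at 20 °C, 3 of 32 collagens were higher and 20 lower in iBAT, against 20.2% and 42.7% of all tested genes, at 30 °C 8 and 10, against 26.3% and 35.8%, and on high fat 8 and 16, against 24.5% and 45.0%. The counts were 7 and 19 after median-ratio scaling and 6 and 14 after quantile normalization at 20 °C, 8 and 9 after median-ratio scaling and 10 and 10 after quantile normalization at 30 °C and 8 and 13 after median-ratio scaling and 8 and 14 after quantile normalization on high fat. Of all genes called, 32.1%, 42.4% and 35.3% were higher in iBAT, and 48.3%, 46.0% and 45.6% after median-ratio scaling, with all-gene medians of -0.15, -0.07 and -0.16. Col3a1 at 30 °C gave 219, 376 and 526 RPKM in iBAT and 317, 518 and 769.7 RPKM in iWAT, overlapping, a difference of -0.40 ± 0.20 (limma adjusted p = 0.0816). Col4a2 was higher in iBAT, with 234, 294 and 338 RPKM and 147, 172 and 198 RPKM, apart, by 0.76 ± 0.12 (limma adjusted p = 8.85e-08). Col12a1, a FACIT collagen, was higher in iBAT by 1.40 ± 0.17 (limma adjusted p = 1.21e-11) and Col27a1 by 2.48 ± 0.17 (limma adjusted p = 2.74e-23). Of 8 fibroblast markers, 8 were lower in iBAT in all 6 comparisons of the depots, against 35.8% to 64.4% of all tested genes. Their part in the result was not tested.

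The depots differed in the genotype effect. A positive term means that Ucp1-KO relative to wildtype was higher in iBAT than in iWAT. At 20 °C, 21 of 32 collagens had a positive and 1 a negative term, against 48.6% and 7.03% of all tested genes, at 30 °C 25 and 0, against 52.7% and 10.4%, and on high fat 19 and 0, against 41.3% and 6.49%. The all-gene medians were 0.31, 0.36 and 0.25 and those of the collagens 0.63, 0.65 and 0.55. Positive and negative terms numbered 17 and 1 after median-ratio scaling and 15 and 4 after quantile normalization at 20 °C, 16 and 0 after median-ratio scaling and 16 and 2 after quantile normalization at 30 °C and 15 and 3 after median-ratio scaling and 15 and 4 after quantile normalization on high fat. Among all calls, 87.3%, 83.5% and 86.4% were positive, and 56.1%, 51.0% and 49.9% after median-ratio scaling. At an unadjusted limma p below 0.05, 0 collagens were negative at 30 °C and 1 on high fat. At 30 °C the term was 1.97 ± 0.36 (limma adjusted p = 1.81e-06) for Col1a1, 1.94 ± 0.21 (limma adjusted p = 1.54e-12) for Col18a1, 1.54 ± 0.22 (limma adjusted p = 7.43e-09) for Col6a1 and 0.79 ± 0.18 (limma adjusted p = 1.18e-04) for Col4a1, the last of which was 0.32 (limma adjusted p = 0.147) after median-ratio scaling.

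The temperature effect was also compared between the depots. A negative term means a lower level at 20 °C relative to 30 °C in iBAT than in iWAT. In wildtype, 0 of 32 collagens had a positive and 4 a negative term, against 5.07% and 11.7% of all tested genes. The share of negative terms was thus close to that of all tested genes. Col4a1 and Col4a2 had terms of -0.83 ± 0.18 (limma adjusted p = 3.73e-04) and -0.84 ± 0.17 (limma adjusted p = 1.80e-04), and the Col4a1 term was -0.45 (limma adjusted p = 0.155) after quantile normalization. In Ucp1-KO, 3 were positive and 17 negative, against 6.70% and 18.8%. Counts there were 2 and 17 after median-ratio scaling and 3 and 15 after quantile normalization. Of all genes called, 30.2% and 26.3% were positive in wildtype and Ucp1-KO, and 41.1% and 52.3% after median-ratio scaling. At an unadjusted limma p below 0.05, 2 collagens were positive in wildtype. Col15a1 and Col18a1 had the terms -1.71 ± 0.28 (limma adjusted p = 1.37e-06) and -1.45 ± 0.21 (limma adjusted p = 1.33e-07). Without labels that pair the depots of an animal, the terms were fitted as if all libraries were independent.

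In a ratio of 2 collagens within a library, that library's scaling cancels apart from the 1 RPKM added to each value. For 8 pairs and 14 comparisons, 112 differences of the log2 ratio were tested with a two-sided exact permutation test of 8 against 8 libraries, which cannot give a p below 0.000155. After adjustment over the 112, 17 passed. They were 8 for Col15a1 to Col4a1, 4 for Col5a1 to Col1a1, 3 for Col6a1 to Col1a1, 1 for Col3a1 to Col1a1 and 1 for Col4a1 to Col1a1. On these rows no difference passed for Col1a1 to Col1a2, Col4a1 to Col4a2 or Col6a3 to Col6a1, chains that share a trimer.

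The ratio of Col15a1 to Col4a1 went in opposite directions in the genotypes of iBAT. In wildtype its log2 value was -2.88 ± 0.28 against -3.73 ± 0.41 (mean ± SD, n = 8 each) at 20 against 30 °C, higher at 20 °C by 0.84 (exact permutation test, adjusted p = 0.00580). In Ucp1-KO it was -3.76 ± 0.27 against -2.78 ± 0.26, a difference of -0.98 (exact permutation test, adjusted p = 0.00580). In Ucp1-KO against wildtype the difference was -0.87 at 20 °C, 0.95 on control diet at 30 °C and 1.11 on the high fat diet (exact permutation test, adjusted p = 0.00580, 0.00696 and 0.00580). In iWAT it differed by 0.48 between 20 and 30 °C in wildtype, by -0.56 between Ucp1-KO and wildtype at 20 °C, and by 0.50 between high fat and control diet in wildtype (exact permutation test, adjusted p = 0.00696, 0.00580 and 0.00696).

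Basement membrane against fibrillar collagen is read from Col4a1 to Col1a1. On high fat in iBAT the log2 ratio was 1.86 ± 0.35 against 3.06 ± 0.31 in Ucp1-KO against wildtype (mean ± SD, n = 8 each). It ran from 1.25 to 2.41 in Ucp1-KO and from 2.49 to 3.44 in wildtype, so the genotypes did not overlap, and the difference was -1.20 (exact permutation test, adjusted p = 0.00580). Type VI against type I, as Col6a1 to Col1a1, was higher on high fat in wildtype iWAT by 0.55 and in wildtype iBAT by 0.44, and differed by -0.45 between Ucp1-KO and wildtype iBAT on high fat (exact permutation test, adjusted p = 0.0206, 0.0336 and 0.0254). In Ucp1-KO the diet differences were 0.46 in iWAT and 0.32 in iBAT, which did not pass on these rows (exact permutation test, adjusted p = 0.173 and 0.164).

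The row chosen for a gene bore on these ratios. With the RefSeq rows in place of the rows of highest mean, 39 of 112 differences passed, 9 of them for Col4a1 to Col4a2. Col6a1 to Col1a1 passed 7 times. It was then higher on high fat in Ucp1-KO too, by 0.28 in iBAT and 0.60 in iWAT (exact permutation test, adjusted p = 0.0246 and 0.0373). Between Ucp1-KO and wildtype iBAT at 30 °C it differed by -0.52 (exact permutation test, adjusted p = 0.0139). Col1a1 to Col1a2 then passed once, in iBAT between the genotypes at 20 °C by 0.15 (exact permutation test, adjusted p = 0.0309), and Col6a3 to Col6a1 in iBAT between the temperatures by -0.23 (exact permutation test, adjusted p = 0.0373) in wildtype and -0.34 (exact permutation test, adjusted p = 0.00912) in Ucp1-KO. On these rows the ratio of Col4a1 to Col4a2 differed by -0.45 between 20 and 30 °C in Ucp1-KO iBAT, and by 0.26 and 0.30 between Ucp1-KO and wildtype iBAT at 30 °C and on high fat (exact permutation test, adjusted p = 0.00158 for each). On the rows of highest mean the same differences were -0.23, -0.02 and 0.09, with adjusted p = 0.286, 0.954 and 0.502 in the exact permutation test. Whether the 2 kinds of row cover the same part of the transcript, and which of them follows the full mRNA, was not tested.

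**Figure D5:**
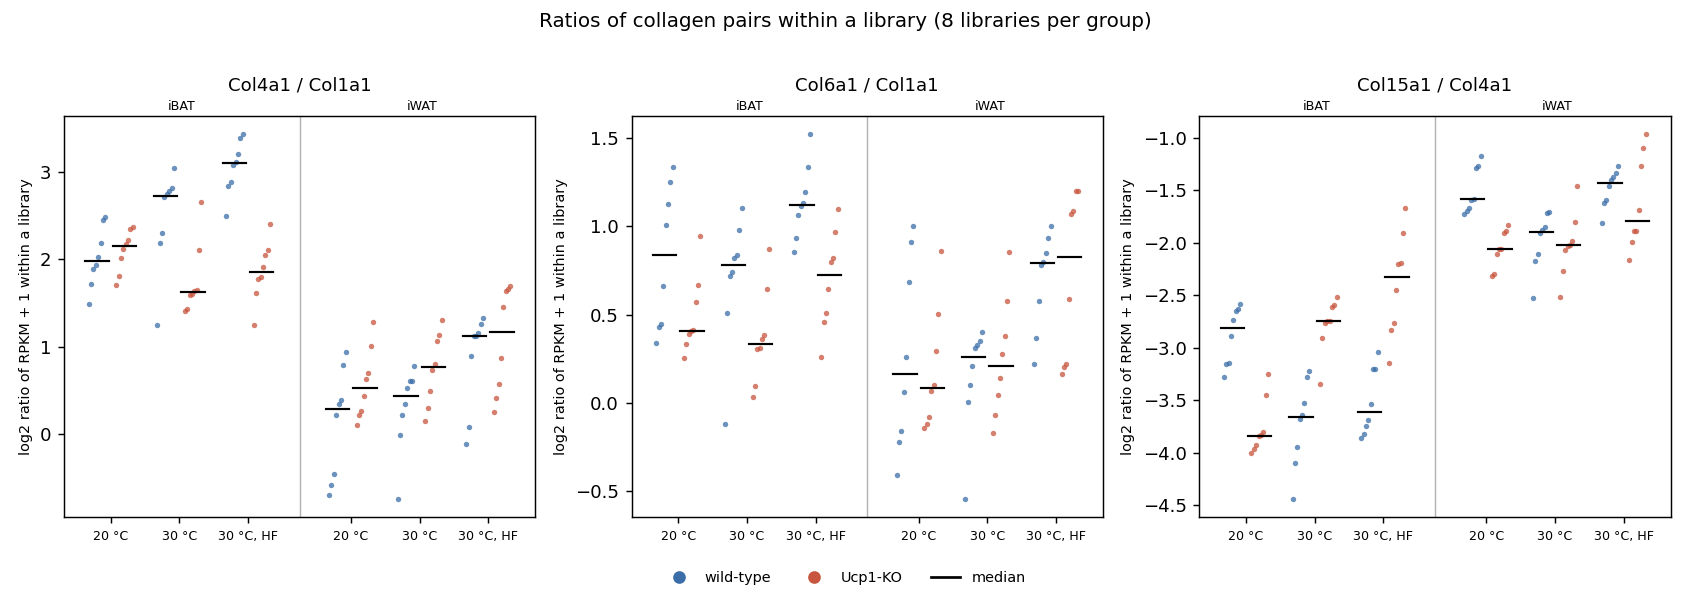
Log2 ratio of RPKM + 1 within each library for Col4a1 to Col1a1, Col6a1 to Col1a1 and Col15a1 to Col4a1, by tissue, housing and diet, with a bar at each group median (n = 8 per group). On high fat in iBAT the Ucp1-KO libraries lie at 1.25 to 2.41 and the wildtype libraries at 2.49 to 3.44 for Col4a1 to Col1a1.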

How the data were processed

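RNA was extracted with TRIsure and a total RNA purification kit and sequenced from TruSeq stranded mRNA libraries, per the labels' protocols; CASAVA and bcl2fastq are named, without versions, in the submitters' processing notes. Aligner, counter, genome build and annotation are not given in the sources that were used. The authors deposited RPKM values for 168326 transcript rows in 96 libraries. For each of 29072 gene symbols the row of highest mean was kept, and a gene was tested where 8 or more of the fitted libraries reached 0.5 RPKM, which left 14807 genes for iBAT, 15897 for iWAT and 16310 for both tissues. log2(RPKM + 1) was fitted on group means with limma 3.58.1 in R 4.3.3, with a variance trend and Benjamini-Hochberg adjustment. Each tissue was fitted on its 48 libraries, and comparisons of depots on all 96 with 12 group means. Depth was recovered from the spacing of low values, of which 94.9% to 95.7% were whole multiples within 0.05. The fit was tested on simulated data. Pair ratios were tested with Python 3.11.15 and scipy 1.17.1.

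Alternatives were a pseudocount of 0.1, no filter, median-ratio scaling, quantile normalization, summed transcripts, and only the groups of a contrast. Added after seeing the data were RefSeq rows and a fit without 18 muscle- or epithelium-rich libraries. The members and gene lists were chosen with earlier results of these data known. Named were 11 collagens (Col1a1, Col1a2, Col3a1, Col4a1, Col4a2, Col5a1, Col6a1, Col6a2, Col6a3, Col15a1, Col18a1), in each comparison the 2 collagens with the largest called change each way and at least 5 RPKM in the higher group, and list members with the smallest p. All libraries carry their own replicate number. A limma p-value rests on the spread between libraries within groups, pooled over all groups of the fit. It does not rest on the compared groups alone, except in the fit with only the groups of a contrast. An exact permutation p-value rests on the 8 libraries of each compared group.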

Additional observations from a re-analysis of the deposited data

Results flagged for a closer look

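Single libraries stood far from the rest of their group in 6 of 132 combinations of 11 collagens and 12 groups, where chance alone would give about 1 in 20 combinations. In wildtype iBAT at 30 °C the highest library read 68.3 RPKM for Col1a1, 180.3 RPKM for Col1a2 and 364 RPKM for Col3a1, all in the same library, whose summed muscle markers were also over 2000 RPKM. In Ucp1-KO iWAT at 30 °C the highest library read 619 RPKM for Col1a2. In wildtype iWAT on high fat the lowest library read 118 RPKM for Col6a1, and in Ucp1-KO iWAT at 20 °C the highest read 13.7 RPKM for Col18a1.

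Effects that differed between genotypes or depots, by the limma test of the difference itself, were the following on log2(RPKM + 1). Genotype by temperature in iBAT was -0.94 for Col1a1, -0.81 for Col3a1, -0.95 for Col6a1 and -1.98 for Col15a1. Depot by temperature was -0.83 for Col4a1 in wildtype, and in Ucp1-KO -1.28 for Col1a1, -0.97 for Col3a1, -0.77 for Col4a1, -1.09 for Col6a1 and -1.71 for Col15a1. Depot by genotype at 20 °C was 1.24 for Col1a1, 1.46 for Col3a1, 0.85 for Col4a1 and 0.99 for Col6a1. At 30 °C it was 1.97 for Col1a1, 1.74 for Col3a1, 0.79 for Col4a1, 1.54 for Col6a1 and 1.77 for Col15a1, and on high fat 1.93 for Col1a1, 1.64 for Col3a1, 0.52 for Col4a1, 1.46 for Col6a1 and 1.77 for Col15a1. Some of these did not pass the threshold after scaling. With median-ratio scaling the genotype by temperature terms were -0.69 (limma adjusted p = 0.0709) for Col1a1 and -0.55 (limma adjusted p = 0.0957) for Col3a1, and the depot by genotype terms of Col4a1 were 0.32 (limma adjusted p = 0.147) at 30 °C and 0.16 (limma adjusted p = 0.529) on high fat. With quantile normalization the last was 0.35 (limma adjusted p = 0.210), and the depot by temperature term of Col4a1 in wildtype -0.45 (limma adjusted p = 0.155).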

How the results depend on the processing

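The count of collagens called stayed within 1.5 times the reported count in most settings. Exceptions were iBAT Ucp1-KO against wildtype at 20 °C (6 reported, 11 with summed transcripts, 11 with only the groups of the contrast), Ucp1-KO iBAT on high fat (7 reported, 3 with a pseudocount of 0.1, 4 with summed transcripts, 3 with only the groups of the contrast, 3 without muscle- or epithelium-rich libraries) and genotype by diet in iBAT (2 reported, 0 without those libraries). In iWAT they were wildtype 20 against 30 °C (5 reported, 3 with a pseudocount of 0.1, 3 without a filter, 1 with median-ratio scaling, 1 without those libraries), Ucp1-KO 20 against 30 °C (24 reported, 13 and 14 with median-ratio and quantile scaling), Ucp1-KO against wildtype at 30 °C (8 reported, 5 without a filter, 1 with median-ratio scaling, 2 without those libraries), wildtype on high fat (9 reported, 4 without those libraries) and genotype by temperature (0 reported, 1 with a pseudocount of 0.1, 2 and 1 with the scalings, 2 with summed transcripts, 4 with only the groups of the contrast, 2 with RefSeq rows). Depot by temperature in wildtype went from 4 to 8 with only the groups of the contrast, and depot by genotype at 30 °C from 25 to 16 with median-ratio scaling.

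The sign turned after median-ratio scaling for Col4a1 (0.0054) and Col4a2 (0.00851) in iWAT between genotypes at 20 °C, for Col4a1 between depots in wildtype at 30 °C (0.47), and for Col4a1 (0.30) and Col4a2 (0.34) between depots in wildtype on high fat. It also turned after quantile normalization for Col4a1 between depots in Ucp1-KO on high fat (-0.0581). The Col4a1 to Col4a2 ratio in iBAT between genotypes at 30 °C turned to 0.17 with summed transcripts and 0.26 with RefSeq rows. The cause was not tested in any of these. Of 336 single differences of named collagens, 301 kept sign and side of the threshold with median-ratio scaling, 312 with quantile normalization, 330 with RefSeq rows and 314 without the muscle- or epithelium-rich libraries. No paired analysis was possible because every library carries its own replicate number and no label ties libraries together. Depth limits the 15 collagens that averaged below 0.5 RPKM, of which 1 was tested in iBAT and 3 in iWAT.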

Other observations

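Deviations of single libraries from their group means, on log2(RPKM + 1), give a view of collagen classes that no comparison of groups uses. Over 48 libraries of a tissue, pairs were chosen after the data had been seen and 16 correlations were computed, with 100000 permutations each, which can give no p below 1e-05. All had a Benjamini-Hochberg adjusted permutation p of at most 0.00738 for both r and rho, apart from Col1a1 and Col4a1 in iWAT. Both genes of a pair are read from the same library and share its depth and scaling. Col1a1 and Col3a1, chains of fibrils, gave r = 0.886 and rho = 0.833 in iBAT and r = 0.882 and rho = 0.896 in iWAT, and r = 0.847 and 0.86 without the 2 libraries farthest from the median. Col6a1 and Col6a2 gave r = 0.842 and rho = 0.827 in iBAT and r = 0.896 and rho = 0.833 in iWAT. Col4a1 and Col4a2, which start next to each other, gave r = 0.454 and rho = 0.407 in iBAT and r = 0.748 and rho = 0.694 in iWAT. All correlations were computed on the rows of highest mean alone, and those of the type IV pair may depend on that choice. In iBAT groups the SD of its log2 ratio was 0.103 to 0.338 on these rows and 0.033 to 0.104 on RefSeq rows.

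Across classes, Col1a1 and Col4a1 gave r = 0.654 and rho = 0.718 in iBAT and r = 0.319 and rho = 0.246 in iWAT. In iWAT the value fell to r = 0.207 without the 2 libraries farthest from the median and the relation rests on them, with rho not past the threshold with them (permutation test, adjusted p = 0.105). Col1a1 and Col6a1 gave r = 0.799 and rho = 0.771 in iBAT and r = 0.696 and rho = 0.678 in iWAT, and Col4a1 and Col6a1 gave r = 0.474 and rho = 0.457 and r = 0.709 and rho = 0.632. These are descriptions, and whether any 2 of them differ was not tested.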
